A study of Homo sapiens with 8 samples.

Results

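The genes described here are 31 genes of the ATF4 and amino acid response, chosen by symbol from a list of the transcription factor ATF4, its known targets and the genes that control it. All 31 symbols were found once each among the 58735 genes of the expression table, and aminoacyl-tRNA synthetases and serine synthesis genes were left out of the list by its rule. RNA came from HepG2, a human cell line grown from a liver cancer. The control group (genotype WT, library names pLV_EGFP_NC) was infected with a control lentivirus, and the DNMT3A group (genotype DNMT3A overexpression, library names pLV_EGFP_DN) with a virus carrying DNMT3A, an enzyme that places new methyl groups on DNA. Each group had 4 libraries. Both groups thus share the infection itself, and the labels name no step that removes amino acids or stresses the endoplasmic reticulum. The sources used here do not give the promoter of the vector or say whether the infected cells were a pool or single clones.

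ATF4 is the main effector of the integrated stress response. Kinases that sense amino acid shortage, unfolded protein, viral RNA or haem shortage phosphorylate the translation factor eIF2, which lowers general translation and raises translation of the ATF4 message. ATF4 then pairs with C/EBP and other bZIP proteins on composite sites in the promoters and introns of genes for amino acid uptake, amino acid synthesis, tRNA charging and feedback control. The amount of ATF4 mRNA is therefore an incomplete measure of ATF4 activity, and the RNA measured here does not include the protein.

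The composite site recognised by ATF4 and C/EBP has the core letters TGATGNAA, or TTNCATCA when it is read from the other strand; the 2 forms do not overlap each other. Promoter windows of 300 bases (250 before and 50 after an annotated start, RefSeq, build GRCh38.p14) were matched by symbol for 27 of the 31 genes, 44 windows in all, because some genes have several starts. The core was present in 9 of the 44 windows (20.5%), 1 window in each of 9 genes, against 3.62% of all 34943 windows. A match is a description of the letters and shows neither binding nor regulation, and a gene without a match in these windows may carry the site elsewhere. The stretches around the 9 matches are shown because these genes include 4 of the 6 amino acid transporters and the 3 genes of the set with the lowest FPKM. Capitals mark the core, sequences run 5′ to 3′ along the strand of the gene, and stretches are 60 bases long, or 30 where the core lies next to or after the start.
SLC3A2 (chr11:62881719-62881748, plus strand): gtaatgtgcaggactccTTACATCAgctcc
SLC7A1 (chr13:29595663-29595692, minus strand): gggcgcactgcTGATGAAAcctggcgccgg
SLC1A4 (chr2:64989381-64989410, plus strand): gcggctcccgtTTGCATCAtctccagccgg
SLC1A5 (chr19:46784878-46784937, minus strand): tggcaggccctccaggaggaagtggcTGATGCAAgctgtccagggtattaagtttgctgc
JDP2 (chr14:75427995-75428024, plus strand): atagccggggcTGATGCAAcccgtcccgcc
ATF3 (chr1:212565190-212565249, plus strand): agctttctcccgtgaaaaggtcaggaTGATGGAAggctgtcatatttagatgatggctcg
ASNS (chr7:97872443-97872502, minus strand): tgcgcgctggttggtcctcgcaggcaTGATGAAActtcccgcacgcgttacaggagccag
CHAC1 (chr15:40953236-40953295, plus strand): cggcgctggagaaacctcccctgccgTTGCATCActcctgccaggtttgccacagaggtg
FGF21 (chr19:48755444-48755503, plus strand): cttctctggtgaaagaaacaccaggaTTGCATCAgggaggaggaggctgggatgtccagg

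The core began 68 bases upstream of the start in ASNS, 191 in ATF3, 209 in CHAC1, 54 in FGF21, 97 in SLC1A5, 16 in JDP2 and 7 in SLC1A4. In SLC7A1 it began at base 8 and in SLC3A2 at base 38 after the start. Where a gene has several starts, the distance is from the start of the window with the match. The other windows of ATF3, ASNS, JDP2, SLC1A4, SLC1A5 and SLC3A2 held no match. The windows of SLC38A2, the transporter gene with the largest rise, and SLC7A5, the transporter gene with the highest RNA level in the controls, held no match, and their 250 bases before the start are shown for comparison.
SLC38A2 (chr12:46372774-46373023, minus strand): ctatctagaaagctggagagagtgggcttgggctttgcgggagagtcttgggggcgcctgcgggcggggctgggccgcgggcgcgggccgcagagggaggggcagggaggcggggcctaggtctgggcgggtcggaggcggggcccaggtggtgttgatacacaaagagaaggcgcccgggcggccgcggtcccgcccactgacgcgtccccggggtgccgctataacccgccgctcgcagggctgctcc
SLC7A5 (chr16:87869508-87869757, minus strand): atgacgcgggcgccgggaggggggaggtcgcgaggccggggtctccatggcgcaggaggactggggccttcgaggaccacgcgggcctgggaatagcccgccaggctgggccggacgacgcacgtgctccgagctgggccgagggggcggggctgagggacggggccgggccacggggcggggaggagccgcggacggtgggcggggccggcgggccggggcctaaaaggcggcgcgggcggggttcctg
Both windows are rich in CpG, the dinucleotide that DNMT3A methylates: 33 CpG in the SLC38A2 window and 44 in that of SLC7A5, against a median of 14 over all windows. This is not particular to either gene. Windows of the set held from 1 CpG (FGF21) to 49 (VLDLR, SLC7A1 and 1 window of JDP2, all genes that fell). A window of SLC1A4, which also fell, had 43, and MAP1LC3B, which was not called, had 42. Other windows of genes that fell held fewer, such as 9 in a window of SLC1A5 and 15 in another of SLC1A4. Whether CpG content goes with the calls was not tested. Methylation itself was not measured.

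Levels are FPKM, fragments scaled to gene length and library size, as the authors deposited them. Libraries held 15911019 to 17677093 reads, recovered from the FPKM. DNMT3A was at 3.45 to 3.89 FPKM in the controls and 7.26 to 10.2 in the DNMT3A libraries (ratio of means 2.45, p = 0.0286 in a two-sided exact permutation test, the minimum possible with 70 assignments). The HepG2 label was checked on defining markers: the 6 hepatocyte markers (ALB, APOA1, APOB, TF, SERPINA1 and FGB) were between 32.5 and 6929 FPKM in every library, and 1 of them, FGB, rose. Markers of leukocytes, endothelium and fibroblasts did not exceed 0.425 FPKM in any library, with PTPRC at 0 in all 8. In bulk RNA, fewer cells with a transcript and less of it per cell cannot be told apart. Libraries of 1 group differed by 4.58 to 24.3 chi-square units per degree of freedom of their reads over genes and libraries of different groups by 20.2 to 35.2. DNMT3A libraries 2 and 4 differed the most within a group (24.3), as much as some pairs from different groups, and library 4 decided several calls below. Separate infections or cultures are not named in the labels; p-values therefore measure library-to-library spread only, and that spread may be technical.

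Genes with a mean of at least 1 FPKM over the 8 libraries were tested with limma on log2(FPKM + 1), and p-values were adjusted by Benjamini-Hochberg over all 11620 genes that passed. Fold changes are DNMT3A minus control on this log2(FPKM + 1) scale, which understates the change of low genes. A gene is called higher or lower where the adjusted p is below 0.05. Of the 31 genes, 28 passed the FPKM filter and 3 (ASNS, CHAC1 and FGF21) did not.

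Of the 28 tested genes 14 changed, and most of those fell: 10 were lower, 4 were higher, and the other 14 missed the threshold. Over all tested genes, 10.6% were called lower, 9.93% higher and 20.6% in either direction. The median log2 fold change of the 28 was -0.01, as it was for all tested genes. The genes not called lay on both sides of 0, more of them above it. The 10 that fell were SLC3A2, SLC7A5, SLC1A5, SLC1A4, SLC7A1, XPOT, TRIB3, VLDLR, NUPR1 and JDP2. SLC38A2, SESN2, ATF3 and EIF2AK4 rose. Control and DNMT3A libraries were fully separate in 14 of the 28, 9 lower and 5 higher, against 25.1% of all tested genes in either direction.

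**Figure D1:**
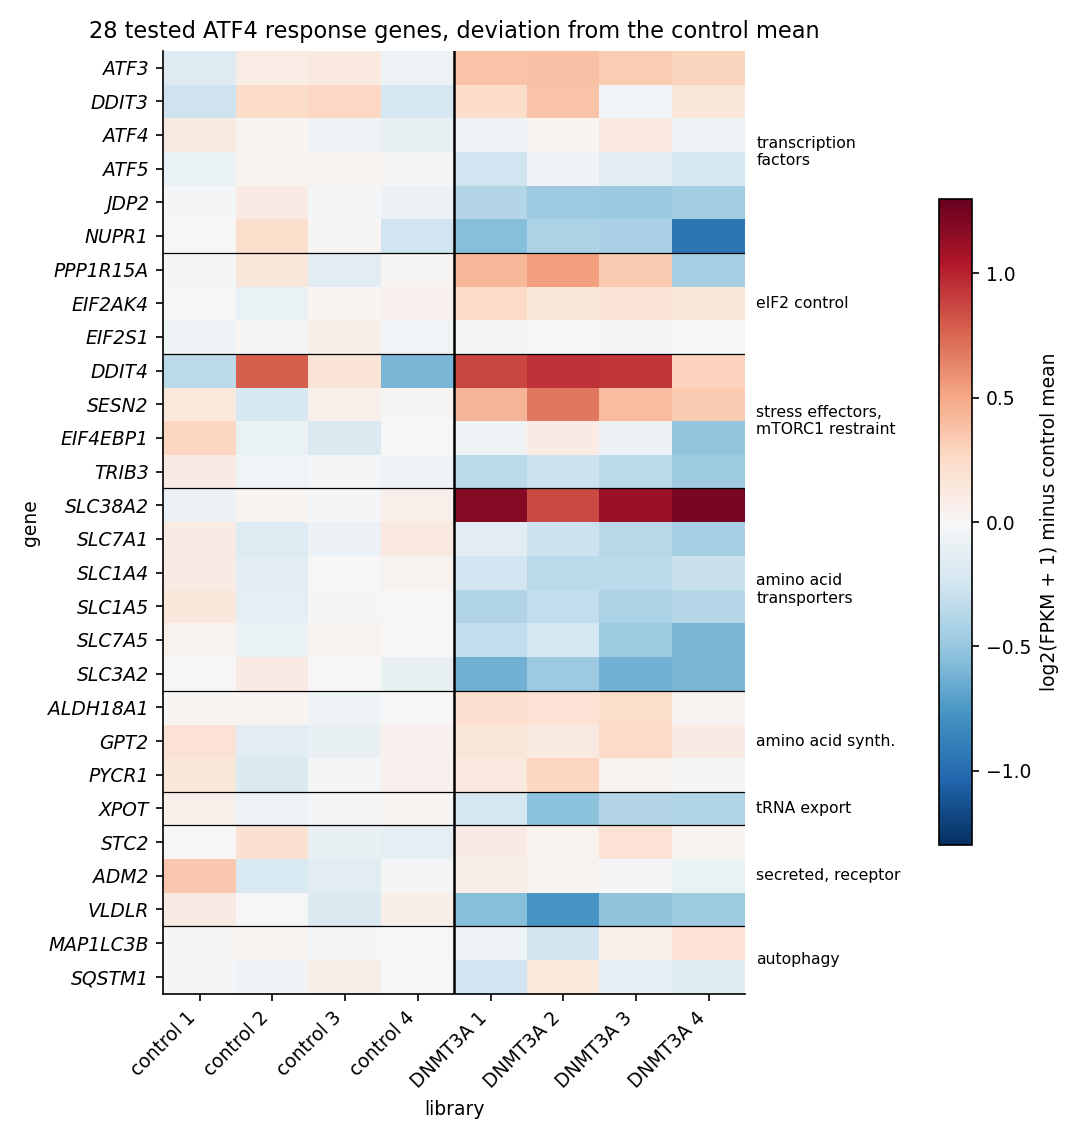
Heat map of the 28 tested genes (rows, grouped by role) in the 4 control and 4 DNMT3A libraries (columns). Colour gives log2(FPKM + 1) minus the mean of the controls. The DNMT3A columns are blue for 5 of the 6 transporter genes and red for SLC38A2, while ATF4 and EIF2S1 stay near white in all 8 libraries.

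The amino acid transporters held the largest group of changes: 5 of 6 fell and 1 rose. SLC7A5 and SLC3A2 encode the light and heavy chain of the LAT1 exchanger, which carries leucine and other large neutral amino acids. SLC7A5 was at 220.3, 199.97, 219 and 214 FPKM in control libraries 1 to 4 and at 170.3, 182, 155 and 141 in DNMT3A libraries 1 to 4. Every DNMT3A library was below every control, with means of 213 ± 9.28 and 162 ± 18.1 FPKM (SD, n = 4, as for all means below; log2 -0.40, limma adjusted p = 0.00896). SLC3A2 was at 64.2, 69.1, 63.9 and 59.8 FPKM in the controls and at 41.3, 45.9, 41.2 and 42.2 in the DNMT3A libraries. Its groups were separated by a wide gap relative to their spread, 64.2 ± 3.81 against 42.7 ± 2.23 FPKM, and its log2 of -0.58 had the lowest p of the genes that fell (limma adjusted p = 0.000382).

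SLC1A5 encodes ASCT2, a glutamine exchanger, and SLC1A4 encodes the related exchanger ASCT1 for alanine, serine and cysteine. SLC1A5 was at 69.98, 58.0, 61.9 and 62.7 FPKM in the controls and at 47.7, 50.2, 47.2 and 48.6 with DNMT3A (log2 -0.37, limma adjusted p = 0.00391). Of the SLC1A5 exon bases 23.4% lie opposite AC008622.2, so reads in these bases may be miscounted. SLC1A4 was at 15.0, 12.5, 13.8 and 14.3 FPKM in the controls and at 11.5, 10.6, 10.6 and 11.1 with DNMT3A (log2 -0.31, limma adjusted p = 0.00841). Neither gene's groups overlapped. SLC7A1 encodes CAT1, which imports arginine and lysine. It was at 22.7, 18.6, 19.9 and 23.1 FPKM in the controls and at 19.0, 17.2, 16.1 and 15.3 with DNMT3A, where DNMT3A library 1 lay above control library 2, so the groups overlapped. Its fall (log2 -0.30, limma adjusted p = 0.0359) was the weakest of the 10. The call was lost without control library 1, 3 or 4, without DNMT3A library 2, 3 or 4, without a filter (limma adjusted p = 0.103) and with quantile normalization (0.0552). SLC7A1 lies on chromosome 13, where the median log2 fold change over 199 tested genes was -0.15 and 66 of them fell; the part of this in the SLC7A1 value was not tested.

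SLC38A2 moved against the other transporters. It encodes SNAT2, a sodium-coupled importer of small neutral amino acids whose synthesis is known to rise in cells short of amino acids. SLC38A2 was at 70.6, 76.0, 73.7 and 78.1 FPKM in the controls and at 172, 136, 163 and 177 in the DNMT3A libraries. Even the lowest DNMT3A library, library 2, was far above the highest control. The mean rose 2.17-fold, from 74.6 ± 3.19 to 162 ± 17.9 FPKM (log2 1.10, limma adjusted p = 5.63e-05), and it ranked at number 40 among 11620 tested genes by size of rise. Only 0.430% of tested genes were called at a rise of at least 2-fold of FPKM + 1, a measure that understates the change of low genes. The gene (hg38 chromosome 12, 46358189 to 46372867, minus strand) has no exon that overlaps another annotated gene. Its neighbour SLC38A1, a related glutamine importer at 46183063 to 46270017 on the same strand, fell from 26.7 to 19.5 FPKM in the mean (log2 -0.43, limma adjusted p = 0.00345). The next tested gene on the other side, RPAP3, had a log2 of 0.01.

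**Figure D2:**
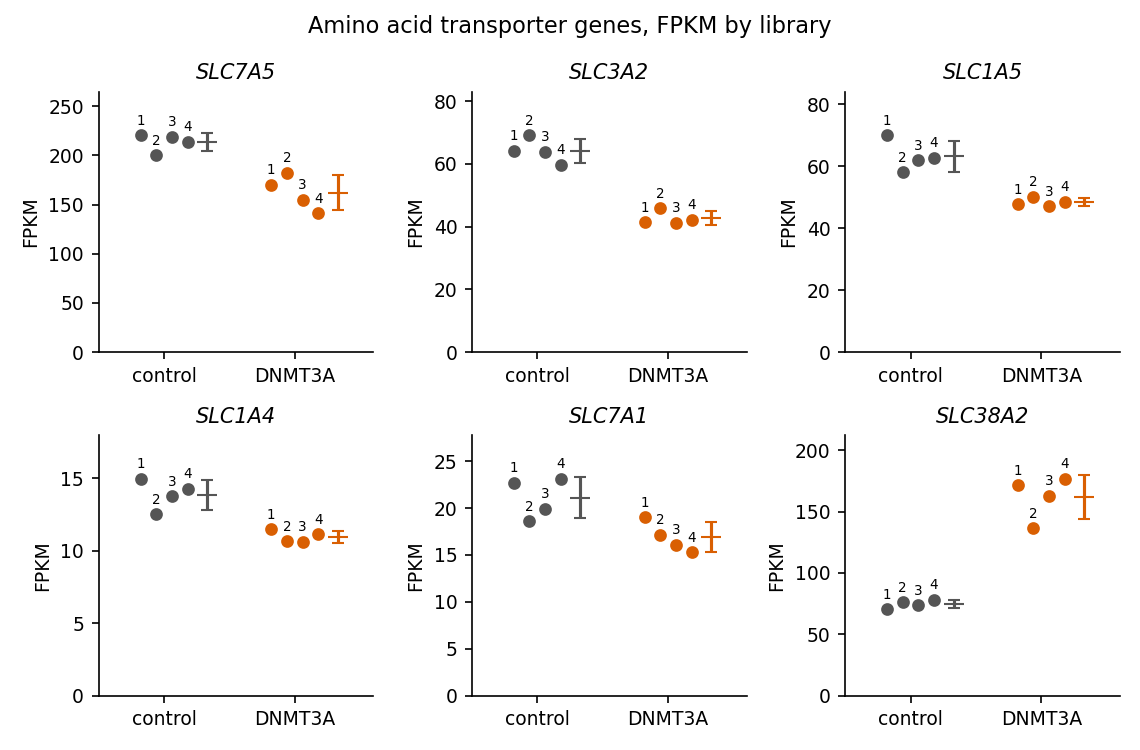
FPKM of 6 amino acid transporter genes in each library, with library numbers beside the points and the mean ± SD of the group (n = 4) to their right; each panel has its own axis from 0. SLC38A2 rises from a mean of 74.6 to 162 FPKM, and the other genes fall, with overlap between groups for SLC7A1.

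Among the transcription factors of the response, ATF4 itself did not pass the test. ATF4 was at 126, 118, 111 and 108 FPKM in the controls and at 109.9, 118, 126 and 110.0 in the DNMT3A libraries. The libraries of both groups lay in the same range, and both means were 116 FPKM (log2 0.00, SE 0.0686, limma adjusted p = 0.987). ATF3, a stress-induced repressor of the same family, rose from 1.10, 1.52, 1.58 and 1.251 FPKM to 2.04, 2.07, 1.97 and 1.89 (log2 0.34, limma adjusted p = 0.0199). No DNMT3A library fell within the control range, but the gene is low, with 71 to 153 reads per library, and its call was lost when DNMT3A library 1 was left out (limma adjusted p = 0.0504) and when no filter was set (0.0622).

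DDIT3 encodes CHOP, the factor that carries prolonged stress towards cell death. Its values of 3.60, 5.56, 5.70 and 3.74 FPKM in the controls and 5.57, 6.18, 4.45 and 5.18 with DNMT3A overlapped (log2 0.18, limma adjusted p = 0.389). Of its exon bases 39.6% are also covered by other genes, 27.2% by MARS on the opposite strand, and no strand-marking step is described for the libraries, so reads in these bases may be miscounted. ATF5, another translationally controlled bZIP factor, was at 6.21 to 6.84 FPKM in the controls and 5.39 to 6.43 with DNMT3A (log2 -0.17, limma adjusted p = 0.0901). It passed the test with array weights (0.0258) and without DNMT3A library 2 (0.0348); 21.2% of its exon bases lie opposite NUP62.

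JDP2, a repressor that binds the same sites as AP-1 and ATF factors, fell. It was at 1.86, 2.12, 1.84 and 1.74 FPKM in the controls and at 1.21, 1.09, 1.06 and 1.10 with DNMT3A (log2 -0.45, limma adjusted p = 0.00371). The DNMT3A libraries lay close together and all below the controls. JDP2 lies on chromosome 14 outside the stretch between 20 and 45 Mb, where 88 of 114 tested genes rose; the 277 tested genes from 45 Mb onward, JDP2 among them, had a median log2 of -0.01. NUPR1, a small stress-induced chromatin protein, was at 2.40, 2.98, 2.43 and 1.83 FPKM in the controls and at 1.302, 1.55, 1.53 and 0.752 with DNMT3A (log2 -0.58, limma adjusted p = 0.0181). DNMT3A library 4 was the lowest of all. NUPR1 missed the threshold when control library 2 was left out (limma adjusted p = 0.0541) and when no filter was set (0.0751).

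Of the 3 genes of the set that act on eIF2 or encode its subunit, 1 rose and 2 did not pass the test. EIF2AK4 encodes GCN2, the kinase that senses uncharged tRNA. It was at 9.29, 8.66, 9.39 and 9.60 FPKM in the controls and at 11.2, 10.3, 10.6 and 10.4 with DNMT3A. The groups did not overlap, and the rise was 15.2% in the mean (log2 0.19, limma adjusted p = 0.0358). Leaving out any of control libraries 1 to 3, or DNMT3A library 1 or 3, ended that call (limma adjusted p between 0.0717 and 0.0972). Its substrate EIF2S1, the alpha subunit of eIF2, stood at 18.2 ± 0.865 and 18.1 ± 0.226 FPKM (log2 -0.01, limma adjusted p = 0.954).

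PPP1R15A encodes GADD34, which directs a phosphatase to eIF2 and so ends the response. Its controls were at 4.40, 5.05, 3.92 and 4.52 FPKM and the DNMT3A libraries at 6.39, 6.90, 5.93 and 3.03. DNMT3A libraries 1 to 3 were above every control and library 4 below every control, so the difference did not pass the test (log2 0.22, limma adjusted p = 0.436). Without DNMT3A library 4 it did (log2 0.44, limma adjusted p = 0.00772).

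TRIB3, SESN2, DDIT4 and EIF4EBP1 restrain growth signalling, and they did not move together. TRIB3 is a pseudokinase induced by ATF4 and CHOP that binds AKT and ATF4. It was at 70.9, 63.8, 64.7 and 63.4 FPKM in the controls and at 51.3, 54.1, 51.3 and 47.5 with DNMT3A. Every DNMT3A library was lower, a fall of the mean from 65.7 ± 3.52 to 51.1 ± 2.70 FPKM (log2 -0.36, limma adjusted p = 0.00386). SESN2, a leucine sensor that restrains mTORC1 and is also a target of p53, rose from 8.44, 6.43, 7.99 and 7.68 FPKM to 10.7, 12.9, 10.4 and 9.91 (log2 0.47, limma adjusted p = 0.00852). Again no libraries overlapped.

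DDIT4 encodes REDD1, an inhibitor of mTORC1 that is induced by hypoxia, glucocorticoids and ATF4. Of the DDIT4 exon bases 41.2% lie opposite DDIT4-AS1, itself at 0 FPKM in every library, so reads in these bases may be miscounted. DDIT4 varied widely: 8.54, 19.8, 12.6 and 7.04 FPKM in the controls and 21.2, 22.3, 22.2 and 13.98 with DNMT3A. Control library 2 was almost as high as DNMT3A library 1, and DNMT3A library 4 lay within the control range. The difference of 0.76 on the log2 scale had an SE of 0.271 and did not pass the test (limma adjusted p = 0.0754). Without control library 2 (log2 1.02, limma adjusted p = 0.0156) or DNMT3A library 4 (log2 0.91, 0.0438) it passed. With all 8 libraries DDIT4 also passed with array weights (limma adjusted p = 0.0279), with voom on the recovered reads (0.0148) and when only protein-coding genes were tested (0.0305). It passed too with the replicate number as a block. EIF4EBP1, which encodes the translation repressor 4E-BP1, was at 32.8 to 45.9 FPKM in the controls and 26.02 to 40.6 with DNMT3A (log2 -0.13, limma adjusted p = 0.535).

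**Figure D3:**
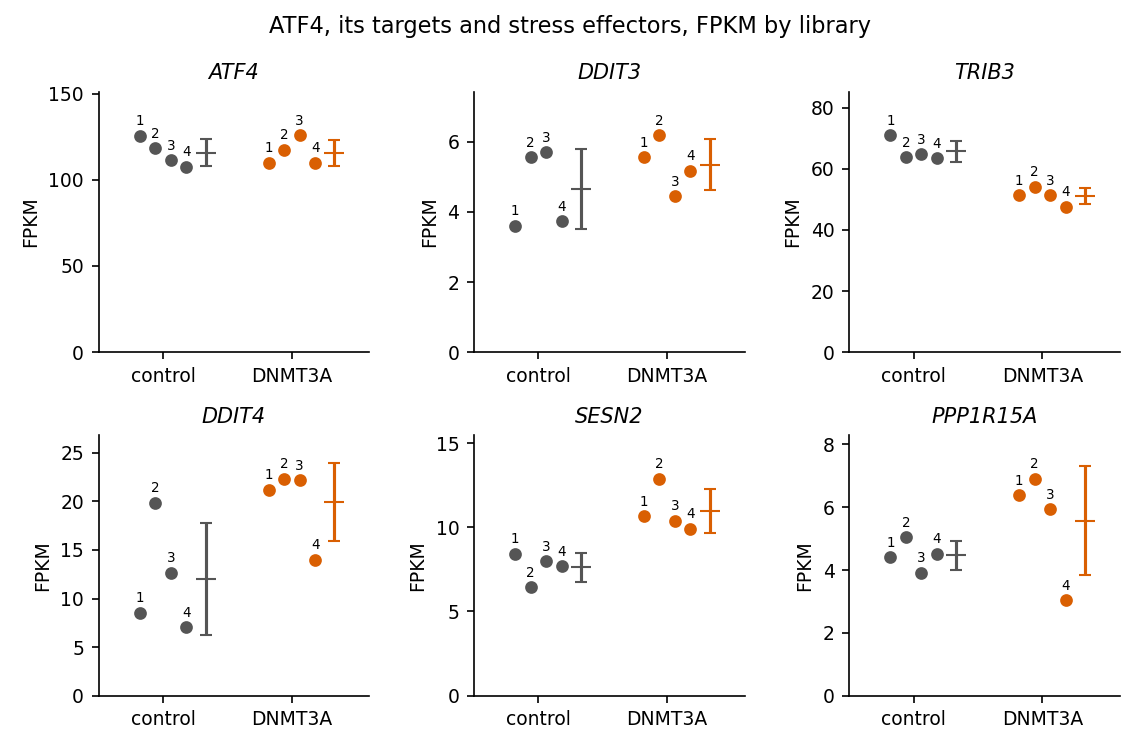
FPKM of ATF4, DDIT3, TRIB3, DDIT4, SESN2 and PPP1R15A in each library, with library numbers beside the points and the mean ± SD (n = 4) to their right; each panel has its own axis from 0. The groups are separate for TRIB3 (lower) and SESN2 (higher), and DNMT3A library 4 lies apart from the other DNMT3A libraries for DDIT4 and PPP1R15A.

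The 3 tested enzymes of amino acid synthesis in the set did not pass the test. Synthesis enzymes outside the set, some of which fell, are given with the lists below. ALDH18A1 and PYCR1 catalyse steps of proline synthesis, and GPT2 is the mitochondrial alanine transaminase. ALDH18A1 was at 69.0, 69.5, 65.2 and 67.9 FPKM in the controls and at 78.9, 77.4, 79.8 and 69.6 with DNMT3A (log2 0.17, limma adjusted p = 0.0706). The groups did not overlap, although DNMT3A library 4 was only just above the highest control. ALDH18A1 passed without DNMT3A library 4 (limma adjusted p = 0.0197), with median-ratio scaling (0.0494), with quantile normalization (0.0102), with array weights (0.00757) and with voom on the recovered reads (0.0451). PYCR1 (log2 0.11) and GPT2 (log2 0.16) overlapped between the groups, with limma adjusted p = 0.403 and 0.176. Other genes cover 29.7% of the PYCR1 exon bases, where reads may be miscounted.

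ASNS, the asparagine synthetase that is a classical target of ATF4, was almost without reads. It had 10, 19, 24 and 32 reads in the controls and 28, 30, 34 and 38 with DNMT3A, or 0.141 to 0.485 FPKM over all libraries. These ranges overlapped. Of its exon bases 44.6% are shared with the annotated transcript AC079781.5 on the same strand, itself at 0.0127 to 0.0439 FPKM, so reads in the shared part may have been dropped or split by the authors' counting. CHAC1, a glutathione-degrading enzyme, had 1 to 10 reads per library, and FGF21, a secreted stress hormone of the liver, had 1, 1, 3 and 0 reads in the controls and 0 in each DNMT3A library. Differences of CHAC1 and FGF21 were not detectable at this depth. With no filter the limma adjusted p was 0.394 for ASNS, 0.371 for CHAC1 and 0.317 for FGF21.

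The tRNA exporter gene XPOT fell, from 38.6, 35.1, 36.3 and 37.6 FPKM to 31.5, 25.2, 28.1 and 27.97 (log2 -0.38, limma adjusted p = 0.0056). All DNMT3A libraries were below all controls. VLDLR, a lipoprotein receptor, fell from 3.11, 2.82, 2.36 and 3.03 FPKM to 1.61, 1.251, 1.66 and 1.77 (log2 -0.57, limma adjusted p = 0.00336), again with no overlap. The secreted factors did not follow: STC2, a secreted glycoprotein, was at 16.5 ± 1.803 and 17.6 ± 0.963 FPKM (limma adjusted p = 0.427), and ADM2, a peptide hormone, at 2.32 ± 0.598 and 2.30 ± 0.167 FPKM (0.975).

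The autophagy genes of the list did not pass the test. MAP1LC3B encodes an LC3 protein of the autophagosome membrane, and SQSTM1 encodes p62, a cargo receptor. MAP1LC3B had the same mean of 15.2 FPKM in both groups, with an SD of 0.255 in the controls and 2.03 with DNMT3A (limma adjusted p = 0.954). SQSTM1 ranged from 16.4 to 17.9 FPKM in the controls and from 14.1 to 18.7 with DNMT3A (log2 -0.10, limma adjusted p = 0.431); 20.7% of its exon bases lie opposite MRNIP.

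**Figure D4:**
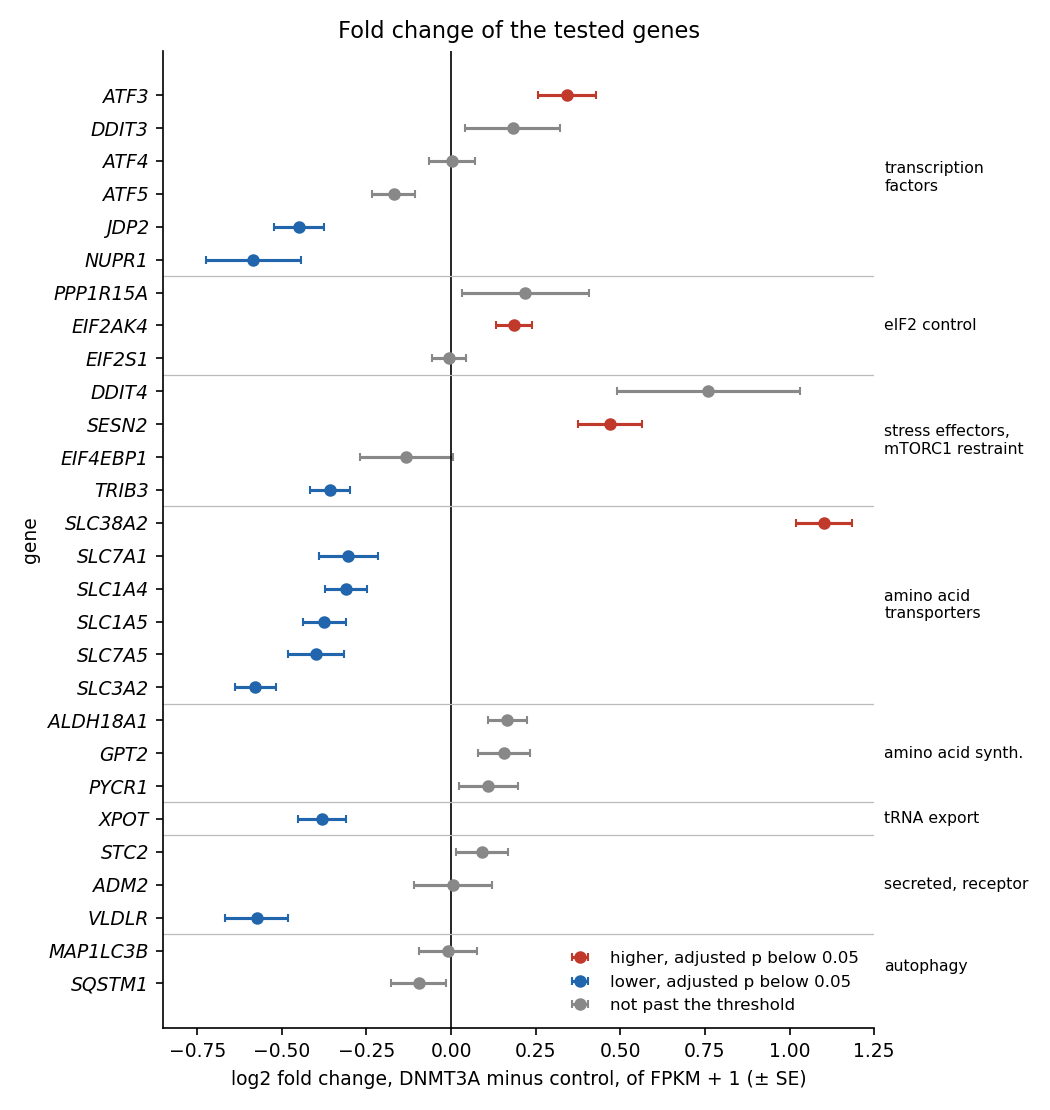
Log2 fold change of FPKM + 1 (DNMT3A minus control, bars are the SE of limma's fit, 4 libraries per group) for the 28 tested genes, grouped by role. SLC38A2 stands at 1.10, DDIT4 at 0.76 with a wide error, and the 10 lower genes lie between -0.58 and -0.30.

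The 6 tested genes whose promoter windows held the ATF4 and C/EBP core all changed: SLC3A2, SLC1A5, SLC1A4, SLC7A1 and JDP2 fell and ATF3 rose. The calls of SLC7A1 and ATF3 did not hold under every alternative, as given above. Of the 18 tested genes of the set whose windows lacked the core, 7 changed: SLC7A5, TRIB3, VLDLR and XPOT fell, and SLC38A2, SESN2 and EIF2AK4 rose. Among all tested genes with a window, 23.6% of the 208 with the core were called, 14.9% lower and 8.65% higher. Of the 7987 without it 20.8% were called, 10.6% lower and 10.2% higher. The genes were not drawn at random, and no test of these differences was made.

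Other genes of the pathway were described from lists of their own, whose counts stand against the 20.6% of all tested genes called, 9.93% higher and 10.6% lower. These lists, like the genes of the set, were chosen with earlier results of these data known. Their shares are therefore descriptions and not independent of the data. Of 15 tested genes for eIF2 kinases and their regulators, a phosphatase partner, eIF2 and eIF2B, 2 rose and 2 fell. The 26.7% called in all is near that background. EIF2AK3, which encodes the endoplasmic reticulum kinase PERK, rose (log2 0.46, limma adjusted p = 0.00116), as did PPP1R15B, the constitutive partner of the eIF2 phosphatase (log2 0.29, 0.0099). EIF2AK1, the haem-regulated kinase (log2 -0.24, 0.0165), and EIF2S2, the beta subunit of eIF2 (log2 -0.33, 0.00709), fell. The EIF2AK1 call was lost without control library 3 and with quantile normalization (limma adjusted p = 0.0591).

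Of 11 tested other targets and dimer partners of ATF4, 5 fell and 3 rose (72.7% called). SLC7A11, the cystine importer, fell by 1.04 on the log2 scale, INHBE by 0.78 and the cysteine synthesis enzyme CTH by 0.74. GDF15, a secreted stress cytokine that is also a p53 target, rose by 0.74 and PCK2, a mitochondrial gluconeogenic enzyme, by 0.37. PCK2 lies on chromosome 14 between 20 and 45 Mb, where 88 of 114 tested genes rose (median log2 0.49). The part of this in the PCK2 value was not tested. Among the dimer partners, CEBPG fell (log2 -0.31, limma adjusted p = 0.00603, groups separate) and CEBPB had a log2 of -0.18 (0.31); CEBPG was named after its values were seen. Of 6 tested genes of serine, glycine and mitochondrial folate synthesis 4 fell and 0 rose (66.7% called, median log2 -0.35), PSAT1 of serine synthesis the most (log2 -0.53). Of 20 cytosolic aminoacyl-tRNA synthetases 9 fell and 0 rose (45% called, median log2 -0.19), with GARS (log2 -0.39) and YARS (log2 -0.39) lowest.

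Of 15 tested amino acid transporters in a list outside the ATF4 set 3 fell and 0 rose, with a median log2 of 0.04. The 20% called is near the 20.6% of all tested genes. Transporters in the list of other ATF4 targets, such as SLC7A11, which fell, were not counted here. SLC43A1, another carrier of large neutral amino acids, fell from a mean of 36.5 to 26.1 FPKM (log2 -0.47, limma adjusted p = 0.000639). Of 27 tested genes of amino acid sensing by mTORC1, 3 rose and 6 fell (33.3% called, against 20.6% of all tested genes). SESN1, a relative of SESN2 and a p53 target, rose (log2 0.37), and RHEB, the GTPase that activates mTORC1, fell (log2 -0.41, limma adjusted p = 0.00977). Of 18 tested autophagy genes 3 rose and 2 fell (27.8% called, near the background), with GABARAPL1, a relative of LC3, higher (log2 0.56) and the cargo receptor TAX1BP1 lower (log2 -0.33).

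In the ATF6 and XBP1 arms of the unfolded protein response, which run beside PERK and ATF4, 5 of 18 tested genes rose and 0 fell (27.8% called, against 20.6% of all tested genes in either direction and 9.93% higher; median log2 0.10). DNAJB9, a co-chaperone of the endoplasmic reticulum, rose by 1.07 on the log2 scale and HERPUD1, a degradation factor, by 0.71, while HSPA5, the main chaperone BiP, stood at 303 and 302 FPKM (log2 -0.01). Whether these lists differ from the ATF4 genes was not tested.

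**Figure D5:**
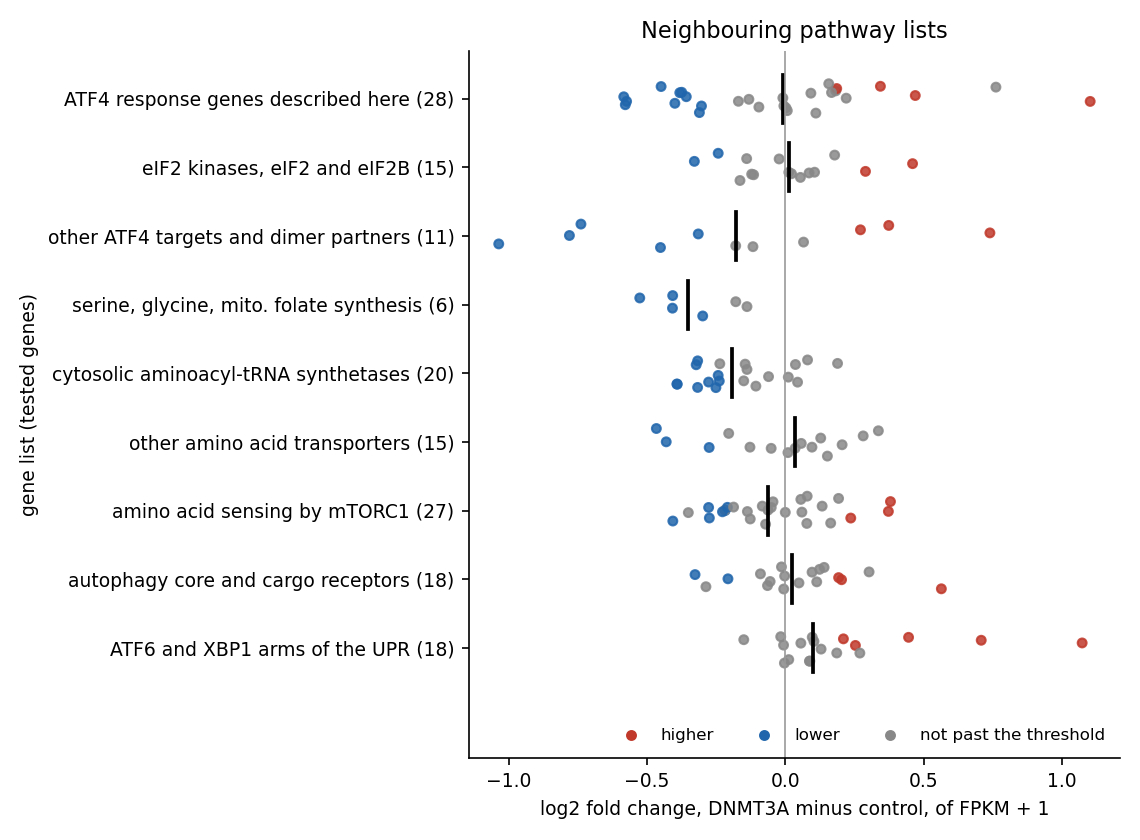
Log2 fold change of FPKM + 1 (DNMT3A minus control) of each tested gene in the ATF4 set and in 8 lists of neighbouring pathways, 1 point per gene, with the number of tested genes in brackets and the median as a black bar. The medians are -0.35 for serine, glycine and mitochondrial folate synthesis and -0.19 for the synthetases, and 0.10 for the ATF6 and XBP1 arms.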

How the data were processed

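Messenger RNA purified with poly-T beads from 8 HepG2 libraries was sequenced. The submitters' processing notes name HISAT2 2.0.5 and build hg38; no counting program is named there. The deposited table gives FPKM per gene, per the file headers, which the authors scaled by gene length and a library total. Coordinates of all 58735 genes equalled those of GENCODE release 29. Whole reads were recovered from FPKM times length for 100% of values (tolerance 0.01 of a read). Genes averaging at least 1 FPKM were tested with limma 3.58.1 in R 4.3.3 on log2(FPKM + 1), with an intensity trend and a Benjamini-Hochberg threshold of 0.05. The procedure was also run on simulated data with independent noise in each gene and library. Such data hold no shared differences between libraries, so they cannot show how those affect the calls. No libraries agreed within sampling noise.

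The members and lists were chosen with earlier results of these data known. All 31 members could be named. A list contributed at most 4 called genes, ranked by size of change, plus at most 2 others, called or not, ranked by mean level. Exon overlap was computed on GENCODE release 29 and promoter matches on RefSeq windows. Alternatives were a pseudocount of 0.1, no filter or one at 0.3 FPKM, median-ratio or quantile scaling, no trend, array weights, a replicate block, and leaving out each library. Voom on the recovered reads and a fit of protein-coding genes only were chosen after seeing the data.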

Additional observations from a re-analysis of the deposited data

Results flagged for a closer look

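A check of each group of 4 libraries for 1 library far from the other 3 was made for 61 groups of values, and chance flags about 1 group in 20. It marked 3. ATF5 in control library 1 was 6.21 FPKM, below the other controls at 6.77 to 6.84 FPKM. TRIB3 in control library 1 was 70.9 FPKM, above the other controls at 63.4 to 64.7 FPKM. DDIT4 in DNMT3A library 4 was 13.98 FPKM, below the other DNMT3A libraries at 21.2 to 22.3 FPKM.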

How the results depend on the processing

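Of the 14 genes of the set that were called, 10 kept direction and call under each of the 18 alternatives run, and 4 (ATF3, NUPR1, EIF2AK4 and SLC7A1) lost the call under at least 1. Of the 14 not called, 5 (ALDH18A1, ATF5, DDIT4, GPT2 and PPP1R15A) passed under at least 1. The count of genes that rose, 4 as reported, was 7 with array weights, 6 with quantile normalization, 6 with voom on the recovered reads, and 2 (without DNMT3A library 1) to 7 (without DNMT3A library 4) with 1 library left out. The count that fell, 10 as reported, was 8 without a filter and 9 to 10 with 1 library left out. All genes called numbered 2389 as reported, 3756 with array weights, 1596 without a filter, and 1508 (without control library 3) to 2443 with 1 library left out; without control library 2 they numbered 1551. The DNMT3A ratio was 2.33 to 2.60 with 1 library left out. Same-numbered libraries did not deviate together (correlations of -0.0816 to 0.159). So few libraries cannot decide whether those with the same number were handled together, and the labels do not say. With the replicate number as a block, 4 genes of the set were higher, 10 lower and 1881 genes called in all. The set called higher was not the same: EIF2AK4 was lost (limma adjusted p = 0.0829) and DDIT4 gained (0.0177). Genes near 0 and not called changed sign. EIF2S1 was at a log2 of 0.00538 with median-ratio scaling, 0.0226 with quantile normalization and 0.00584 with voom; ADM2 was at -0.015 with quantile normalization; MAP1LC3B was at 0.00162 with median-ratio scaling, 0.0136 with quantile normalization, 0.0349 with array weights and 0.000213 with voom. With 1 library left out, log2 values spanned -0.0381 to 0.0421 for ATF4, -0.0281 to 0.0215 for EIF2S1, -0.0594 to 0.12 for ADM2 and -0.0759 to 0.0682 for MAP1LC3B. The planned count models and TMM scaling were not run, because the deposited table holds FPKM and not raw counts. Voom on the recovered reads was added instead. Low read counts limit ASNS, CHAC1 and FGF21, which had at most 38 reads in any library. For ASNS, reads in the exon bases shared with AC079781.5 may be missing from that count.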
